A study of Mus musculus with 9 samples.

Results

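Genes of fatty acid oxidation and of the response to peroxisome proliferator-activated receptors (PPARs), 46 of the 24453 in the deposited table, were compared between quiescent hepatic stellate cells (HSCs) of healthy liver and activated fibroblasts from 2 mouse models of liver fibrosis. The members were chosen by gene symbol, and all 46 were found in the table and kept by the filter on low values. They fall into 8 roles: nuclear receptors and their coactivator (3 genes), fatty acid uptake, binding and activation (10), the carnitine shuttle (4), mitochondrial beta-oxidation and electron transfer (13), peroxisomal enzymes (4), omega-oxidation (3), thioesterases, ketone body and fuel switch enzymes (4), and lipases, a lipase inhibitor and carboxylesterases (5).

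RNA sequencing was done on 9 libraries, 3 in each group, and each library came from the pooled cells of 3 to 5 mice. HSCs were separated by density gradient from healthy wild-type C57BL/6J livers and were not sorted for a reporter. CCl4-fib were CD45- GFP+ cells sorted from mice that carry green fluorescent protein under the Col1a2 promoter (Col1a2-GFP Tg) and received intraperitoneal carbon tetrachloride (CCl4) 2 times a week for 8 weeks. NASH-fib were CD45- GFP+ cells sorted from male MC/COL mice, a cross of Col1a2-GFP Tg mice with mice lacking the melanocortin 4 receptor (MC4R-KO), fed a Western diet for 20 weeks from 8 weeks of age as a model of non-alcoholic steatohepatitis (NASH). The activated fibroblasts were thus chosen by activity of a collagen promoter and the HSCs were not, so a difference between either fibroblast group and HSCs cannot be told apart from the way the cells were isolated. The models also differ in genotype, diet, toxin and length of treatment at once, and these cannot be told apart from each other. Sex and age are stated only for the MC/COL mice, so a difference in either between the groups cannot be checked.

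Long-chain fatty acids enter cells through carriers such as CD36 and the SLC27 proteins, are bound by fatty acid-binding proteins and are activated by acyl-CoA synthetases. CPT1, the translocase SLC25A20 and CPT2 carry them into mitochondria, where beta-oxidation shortens them step by step and passes electrons to the electron transfer flavoprotein. PPARα, encoded by Ppara, is the nuclear receptor that governs much of this program in the liver, above all in hepatocytes, and the Cyp4a genes of omega-oxidation are among its best known targets.

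PPARα binds DNA together with RXR at a pair of AGGTCA half-sites 1 base apart. The promoter table of RefSeq (GRCm38.p6, 250 bases before to 50 bases after each start) held an entry for 34 of the 46 genes, and the start nearest to that of the deposited table was used. The other 12 were not searched: Cyp4a10, Cyp4a12a, Cyp4a14, Angptl4, Lpl, Fabp4, Slc27a5, Cpt1b, Acaa2, Hsd17b4, Ces1d and Ces3a. The entry for Ppargc1a lay 13804 bases from its deposited start. The exact element, AGGTCANAGGTCA on either strand, was in 0 of these 34 promoters and in 13 of all 32851 (0.0396%). A looser form with any base at the fourth position of each half-site, AGGNCANAGGNCA, was in 1 of the 34 and in 125 of all promoters (0.381%), and the single half-site AGGTCA was in 8 of the 34 (23.5%) and in 16.3% of all. The looser form contains the exact one, and both contain the letters of the half-site or a variant of it. The gene with the looser match was Fabp1, the liver fatty acid-binding protein, a textbook PPARα target and the gene of the set with the highest value per kilobase in HSCs. The 250 bases before its start are shown (chr6:71199629-71199878, plus strand), with the match in capitals. It lies on the minus strand from position -67 to -55.
Fabp1: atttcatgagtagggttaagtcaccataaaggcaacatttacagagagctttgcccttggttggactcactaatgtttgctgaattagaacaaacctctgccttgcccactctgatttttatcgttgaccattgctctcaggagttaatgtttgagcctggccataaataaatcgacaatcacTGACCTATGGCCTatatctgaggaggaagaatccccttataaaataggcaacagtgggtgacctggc

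The values are the deposited normalized read counts, which sum to about the same total in every library. Reads on genes numbered 3071070 to 3825522 in HSCs, 4687349 to 5634273 in CCl4-fib and 3289758 to 5021156 in NASH-fib, and 3 reads, taken here as the floor, correspond to a value of 2.38 to 4.37. Intervals and floors cover counting error only. Mc4r, the gene deleted in the NASH model, was without reads in the HSC and CCl4-fib libraries (0 each), and the NASH-fib libraries held 4, 13 and 0 reads, which gives no check of the labels. Markers of quiescent stellate cells (12 genes) summed to 36585 to 45650 in HSCs, 5481 to 9126 in CCl4-fib and 2716 to 7184 in NASH-fib, and markers of activated fibroblasts (10 genes) to 7099 to 12509, 54734 to 62505 and 35583 to 40940. Hepatocyte markers (20 genes, none of them at 0 in any group) were read in every library and summed to 42398 to 87349 in HSCs, 5482 to 10411 in CCl4-fib and 12321 to 51221 in NASH-fib. NASH-fib replicate 2 had the lowest hepatocyte sum of its group (12321, against 47204 and 51221 in replicates 1 and 3). The Hp gene alone gave 38.7% to 47.7% of the hepatocyte sum in CCl4-fib and at most 8.10% elsewhere. The part of hepatocyte RNA in the differences between groups was not tested. In bulk samples, fewer cells of a type and less RNA per cell cannot be told apart.

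HSC replicate 2 and NASH-fib replicate 1 stood apart from the others. Their deviations from their group means correlated with r = 0.645 across genes, which are not independent. Their labels begin with 11-3, as does the label of CCl4-fib replicate 1. This prefix is read here as a date, and what it marks is not stated. In NASH-fib replicate 1, genes in the lowest tertile of GC content were higher than in the other NASH-fib libraries by a median of 0.65 (log2) and genes in the highest tertile were lower, at a median of -1.14. In HSC replicate 2 these medians were 0.47 and -0.69. Both libraries were the lowest of their group for 11 of the 46 genes (23.9%, against 33.2% of all genes tested) and the highest for another 11 (23.9%, against 24.9%). The first set was Slc25a20, Acadvl, Acadm, Acads, Hadha, Hadhb, Acaa2, Echs1, Etfb, Angptl4 and Ces1d, 8 of which belong to mitochondrial beta-oxidation. The second was Ppargc1a, Cd36, Fabp1, Fabp4, Slc27a2, Acsl4, Acsl5, Acadl, Etfa, Pdk4 and Lpl. Leaving out both libraries gave 9 genes higher in NASH-fib than in CCl4-fib in place of 10.

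**Figure D1:**
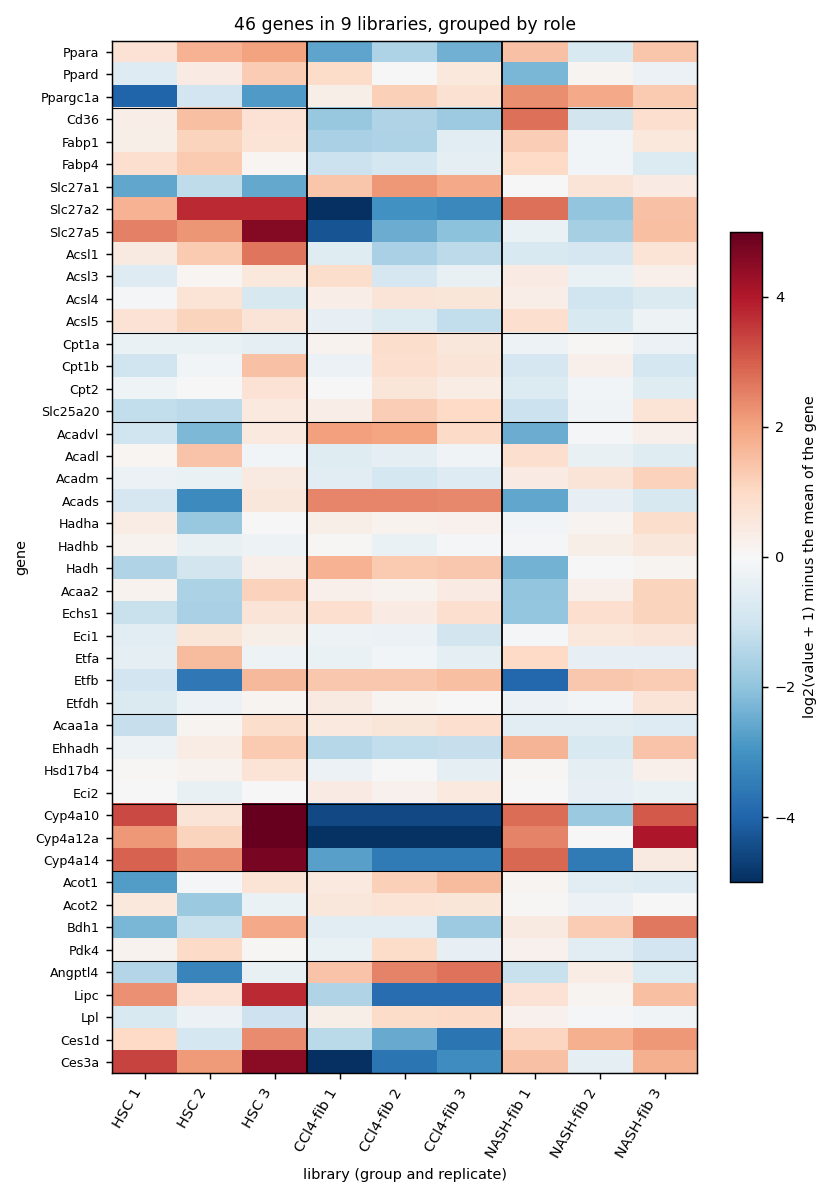
Values of the 46 genes (rows, by role, black lines between roles) in the 9 libraries (columns). Color gives log2(value + 1) minus the mean of the gene over the 9 libraries, with the color scale ending at 5 in either direction. Ppara, Slc27a2, the Cyp4a genes, Lipc, Ces1d and Ces3a are low in all 3 CCl4-fib libraries, and Slc27a1, Acads, Hadh and Angptl4 are high there.

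All comparisons were made in a single limma model over the 9 libraries, on log2(value + 1), with Benjamini-Hochberg adjustment over all 13651 genes tested. A gene is called higher or lower at an adjusted p under 0.05 and an absolute log2 fold change no smaller than 1. Of the 46 genes, CCl4-fib had 7 higher and 14 lower than HSCs, where 16.2% of all genes tested were called higher and 11.7% lower. NASH-fib had 2 higher and 1 lower than HSCs, against 8.23% and 4.3% of all genes. Against CCl4-fib, NASH-fib had 10 higher and 2 lower, against 4.97% and 5.66% of all genes. As shares of the 46 genes, these were 15.2% and 30.4%, 4.35% and 2.17%, and 21.7% and 4.35%. The median log2 fold change of the set was -0.05 in CCl4-fib against HSCs (0.18 for all genes), -0.12 in NASH-fib against HSCs (-0.02 for all genes) and 0.22 in NASH-fib against CCl4-fib (-0.11 for all genes). CCl4-fib takes part in both comparisons in which most calls were made. There were 9 genes that passed both tests with CCl4-fib at the low end, Ppara, Cd36, Fabp1, Slc27a2, Cyp4a10, Cyp4a12a, Lipc, Ces1d and Ces3a, and 2 with CCl4-fib at the high end, Acads and Angptl4. Of all genes tested, 3.47% had the first pattern and 4.18% the second, and the 2 tests share the CCl4-fib libraries. No call was made in any comparison for 24 of the 46 (52.2%, against 67.7% of all genes tested).

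Among the nuclear receptors, Ppara fell in CCl4-fib and its coactivator gene Ppargc1a rose in both kinds of fibroblasts. Ppara (NM_001113418, mm10 chromosome 15, 85735564 to 85806851, plus strand) had values of 106, 216 and 263 in the HSC libraries, 9.52, 21.3 and 11.5 in the CCl4-fib libraries, and 181, 37.4 and 169 in the NASH-fib libraries (replicates 1, 2 and 3 here and below). CCl4-fib lay below both other groups without overlap, and NASH-fib overlapped HSCs. The log2 fold change was -3.68 (SE 0.66, limma adjusted p = 0.0022) in CCl4-fib against HSCs, 2.89 (SE 0.66, limma adjusted p = 0.024) in NASH-fib against CCl4-fib and -0.79 (SE 0.66, limma adjusted p = 0.58) in NASH-fib against HSCs. NASH-fib replicate 2, the library with the lowest hepatocyte sum of its group, also had the least Ppara. Per 1000 units of the hepatocyte sum, Ppara lay between 2.51 and 4.30 for HSCs, 1.10 and 3.36 for CCl4-fib, and 3.04 and 3.83 for NASH-fib, ranges that overlap. Per 1000 units of Alb, the albumin gene, they were 11.7 to 22.6, 13.8 to 34.5 and 12.1 to 21.4.

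Ppard encodes PPARδ, the more widely expressed receptor of the family. Its values were 10.5, 23.3 and 43.0 in HSCs, as against 33.3, 17.01 and 24.8 in CCl4-fib, with 2.72, 18.7 and 13.8 in NASH-fib. These groups overlapped, and no comparison was called, with log2 fold changes of 0.12 (SE 0.76) in CCl4-fib against HSCs, -1.17 (SE 0.76) in NASH-fib against HSCs and -1.29 (SE 0.76) in NASH-fib against CCl4-fib. The sign of the first depended on the processing (under both count tests it was negative). Ppargc1a encodes PGC-1α, a coactivator of PPARα and of mitochondrial biogenesis. Its values were 0, 7.28 and 1.2 among the HSCs, 18.3, 35.7 and 25.8 among the CCl4-fib and 78.8, 57.9 and 38.3 among the NASH-fib. All 6 fibroblast libraries lay above all HSC libraries, and every NASH-fib library lay above every CCl4-fib library. The log2 fold change was 4.44 (SE 0.77, limma adjusted p = 0.00315) in NASH-fib and 3.34 (SE 0.77, limma adjusted p = 0.0088) in CCl4-fib against HSCs, and 1.10 (SE 0.77, limma adjusted p = 0.37) between the fibroblast groups. These levels are low, at 0.438 per kilobase in HSCs, 4.12 in CCl4-fib and 9.05 in NASH-fib.

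Of the 10 genes of fatty acid uptake, binding and activation, 7 fell in CCl4-fib against HSCs (11.7% of all genes tested were called lower), Slc27a1 rose, and Acsl3 and Acsl4 were not called. Fabp1 (NM_017399, mm10 chromosome 6, 71199888 to 71205023, plus strand), whose promoter is shown above, had values of 2507, 4462 and 3312 in the HSC libraries, 671, 696 and 1361 in the CCl4-fib libraries and 4754, 1871 and 2958 in the NASH-fib libraries. Each CCl4-fib library was below each of the other 6. The log2 fold change was -1.95 (SE 0.44, limma adjusted p = 0.0077) against HSCs, and NASH-fib were higher than CCl4-fib by 1.79 (SE 0.44, limma adjusted p = 0.030). Per 1000 units of the hepatocyte sum, Fabp1 was 37.9 to 89.1 in HSCs, 110 to 131 in CCl4-fib and 57.8 to 152 in NASH-fib, so on this scale CCl4-fib were not the lowest. The counting is described as keeping at most 3 reads per position. Fabp1 reached 7.20 reads per base of its exons and Fabp4 reached 4.36, both above that limit. How the limit acted on their high values therefore cannot be told, and these may be flattened.

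Cd36, a scavenger receptor that takes up fatty acids in macrophages, endothelium and other cells, had values of 916, 2033 and 1192 in HSCs, as against 194, 253 and 205 in CCl4-fib, with 4952, 387 and 1288 in NASH-fib. The NASH-fib range contained all HSC libraries, and the CCl4-fib libraries were the lowest 3. Cd36 was lower by 2.59 (log2, SE 0.74, limma adjusted p = 0.026) in CCl4-fib than in HSCs and higher by 2.64 (SE 0.74, limma adjusted p = 0.046) in NASH-fib than in CCl4-fib. The markers of macrophages (13 genes) summed to 5491 to 18894 in HSCs, 491 to 982 in CCl4-fib and 3124 to 7022 in NASH-fib. The CD45- gate, which should remove macrophages, was applied to the fibroblasts only. In NASH-fib, Lyz2 alone gave 2929, 2282 and 3945 of the macrophage sums of 4199, 3124 and 7022. Markers of neutrophils (6 genes) summed to 591, 6035 and 1196 there. Those of sinusoidal endothelial cells (13 genes) summed to 12772 to 20352 in HSCs, 388 to 469 in CCl4-fib and 1278 to 4516 in NASH-fib. None of the macrophage or endothelial markers was at 0 in any group, and the part of these cells in the Cd36 values was not tested. Fabp4, the adipocyte and macrophage fatty acid-binding protein, had 2841, 4031 and 1717 among the HSCs, 766, 882 and 1169 among the CCl4-fib and 3173, 1454 and 1001 among the NASH-fib. It was lower in CCl4-fib than in HSCs (log2 fold change -1.54, SE 0.47, limma adjusted p = 0.033). Markers of adipocytes (6 genes) were near 0, with sums of 0 to 55.0 over all libraries and Plin1 without a read.

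The 3 fatty acid transport proteins of the SLC27 family moved in different directions. Slc27a1, the form known from muscle and fat, had 2.34, 7.28 and 2.39 in the HSC libraries, 52.4, 89.3 and 74.4 in the CCl4-fib libraries and 19.0, 30.3 and 25.6 in the NASH-fib libraries. The 3 groups did not overlap, in that order from HSCs to NASH-fib to CCl4-fib. It rose by 3.97 (log2, SE 0.56, limma adjusted p = 5.6e-04) in CCl4-fib and by 2.49 (SE 0.56, limma adjusted p = 0.013) in NASH-fib, and the difference of -1.48 between NASH-fib and CCl4-fib was not called (SE 0.56, limma adjusted p = 0.11). Slc27a2 (NM_011978, mm10 chromosome 2, 126553024 to 126588243, plus strand), the very long-chain acyl-CoA synthetase of liver and kidney, had 117, 475 and 466 in HSCs, as against 0, 3.4 and 2.86 in CCl4-fib, with 237, 8.02 and 97.3 in NASH-fib. CCl4-fib held almost no reads of it, and NASH-fib replicate 2 was far below the other NASH-fib libraries. The log2 fold change was -6.85 (SE 1.12, limma adjusted p = 0.0014) against HSCs and 4.53 (SE 1.12, limma adjusted p = 0.031) in NASH-fib against CCl4-fib. A gene on the opposite strand, Gm26697, covers 11.2% of its exon bases, and counting ignored strand. Slc27a5, the bile acid and fatty acid-CoA ligase of hepatocytes (NM_009512, mm10 chromosome 7, 12988346 to 12998192, minus strand), had 113, 90.3 and 472 among the HSCs, 0, 2.55 and 3.82 among the CCl4-fib and 14.95, 5.34 and 55.0 among the NASH-fib. It fell by 6.05 on the log2 scale (SE 0.96, limma adjusted p = 0.0012) in CCl4-fib and fell by 3.26 in NASH-fib (SE 0.96, limma adjusted p = 0.0497), both against HSCs, and it was the only 1 of the 46 lower in NASH-fib than in HSCs.

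Acyl-CoA synthetases attach coenzyme A to the fatty acid. Acsl1, the main form of liver and fat, had 155, 280 and 740 in the HSC libraries, 73.8, 36.6 and 45.8 in the CCl4-fib libraries and 66.6, 62.3 and 183 in the NASH-fib libraries, and was lower in CCl4-fib (log2 fold change -2.65, SE 0.63, limma adjusted p = 0.010). Acsl5 was lower in CCl4-fib too (-1.62, SE 0.44, limma adjusted p = 0.020), with values of 796 to 1105 in HSCs, 213 to 375 in CCl4-fib and 297 to 915 in NASH-fib. The form with the highest value per kilobase was Acsl4, which prefers arachidonic acid, with values of 1133 to 3158 in HSCs, 2475 to 3075 in CCl4-fib and 1003 to 2505 in NASH-fib and no call. Acsl3, the form of lipid droplets and the endoplasmic reticulum, lay between 21.3 and 72.2 in all libraries, also with no call.

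**Figure D2:**
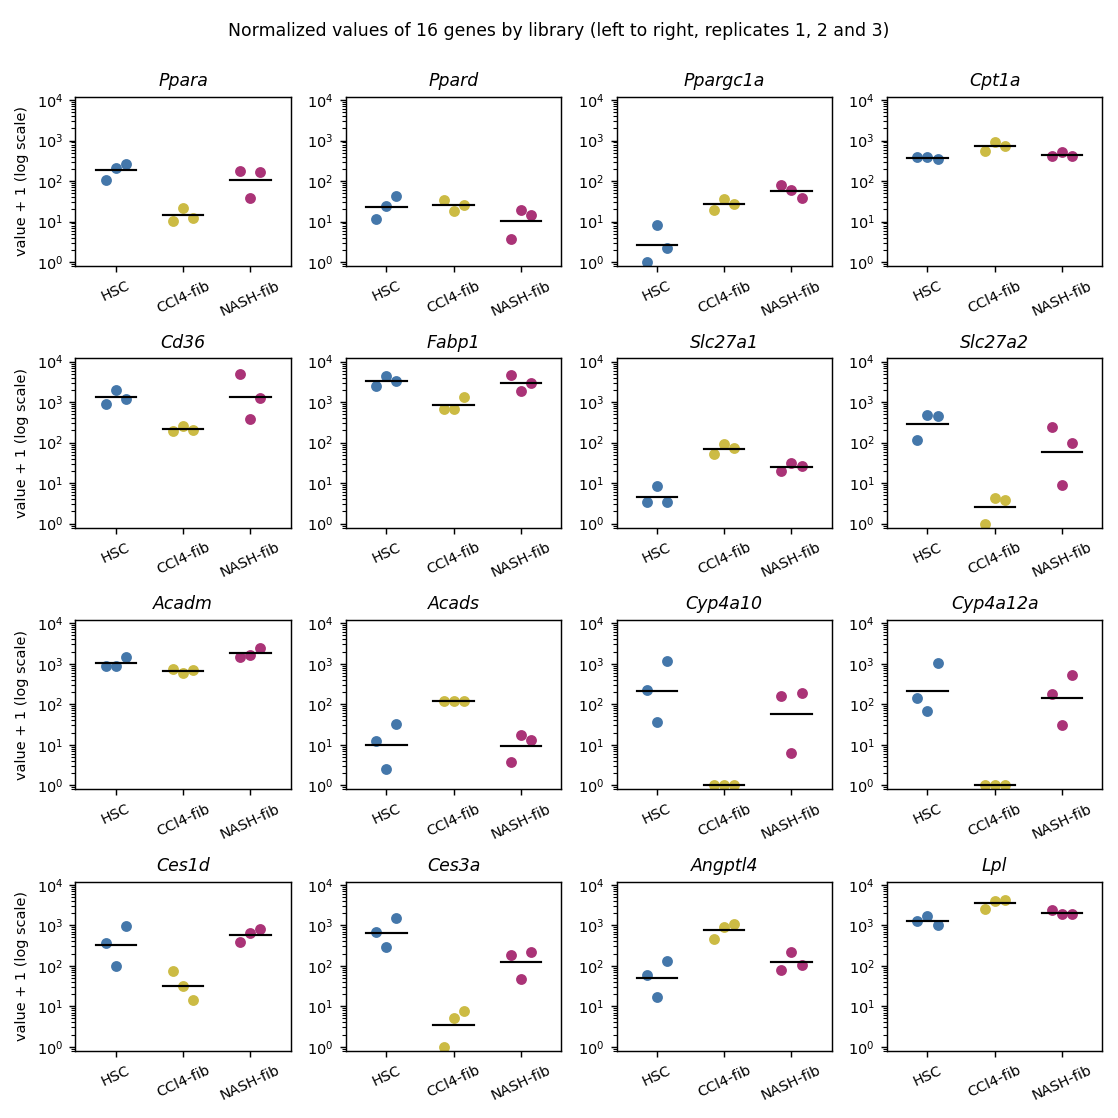
Deposited normalized values plus 1 (log scale) of 16 of the 46 genes in HSCs (blue), CCl4-fib (yellow) and NASH-fib (magenta). Each point is 1 library, replicates 1 to 3 from left to right, and the black line is the mean of the group on the log scale. Cyp4a10 and Cyp4a12a are at 0 reads in the 3 CCl4-fib libraries, and Ppargc1a is below 10 in the 3 HSC libraries only.

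The carnitine shuttle had no call in any comparison. Cpt1a (NM_013495, mm10 chromosome 19, 3323301 to 3385733, plus strand), the liver form of the rate-limiting carnitine palmitoyltransferase, had 393, 398 and 355 in HSCs, as against 559, 902 and 736 in CCl4-fib, with 419, 510 and 407 in NASH-fib. CCl4-fib lay above both other groups, and NASH-fib lay just above HSCs, with 407 against 398 in the nearest libraries. Its log2 fold change in CCl4-fib against HSCs was 0.91 (SE 0.31, limma adjusted p = 0.0492), which passed the p but was under the fold limit. In NASH-fib it was 0.22 (SE 0.31, limma adjusted p = 0.80) against HSCs and -0.70 (SE 0.31, limma adjusted p = 0.17) against CCl4-fib. Its mean was 382 ± 23.3 in HSCs, 732 ± 171 in CCl4-fib and 445 ± 56.6 in NASH-fib (SD, n = 3 each). Slc25a20, the carnitine-acylcarnitine translocase, had 97.03, 91.7 and 319 among the HSCs, 283, 536 and 458 among the CCl4-fib and 106, 203 and 369 among the NASH-fib, with a log2 fold change of 1.53 (SE 0.59, limma adjusted p = 0.077) in CCl4-fib against HSCs. Cpt2, the inner membrane transferase, lay between 69.3 and 188 in all libraries. Cpt1b, the muscle form, lay between 3.51 and 23.9, and 79.4% of the short stretches of its sequence are shared with Gm44502, so its reads cannot be assigned with confidence.

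In mitochondrial beta-oxidation, 3 of 13 genes rose in CCl4-fib against HSCs (23.1%) and none fell, against 16.2% and 11.7% of all genes tested. No gene of this role was called in NASH-fib against HSCs, where 8.23% of all genes were called higher and 4.3% lower. Acyl-CoA dehydrogenases start each cycle, and their 4 genes differed. Acads (NM_007383, mm10 chromosome 5, 115110299 to 115119346, minus strand), the short-chain enzyme, had 11.7, 1.46 and 32.3 in the HSC libraries, 121, 121 and 118 in the CCl4-fib libraries and 2.72, 16.03 and 11.8 in the NASH-fib libraries. The CCl4-fib libraries were high and almost equal (120 ± 1.39, SD, n = 3), and the other 6 were low and overlapped. Acads was higher in CCl4-fib than in HSCs by 3.58 (log2, SE 0.91, limma adjusted p = 0.015) and lower in NASH-fib than in CCl4-fib (log2 fold change -3.70, SE 0.91, limma adjusted p = 0.031). The lowest HSC and NASH-fib libraries for Acads were HSC replicate 2 and NASH-fib replicate 1.

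Acadvl, the very long-chain enzyme, had 150, 62.6 and 415 in HSCs, as against 1241, 1161 and 584 in CCl4-fib, with 53.0, 287 and 359 in NASH-fib. It rose by 2.58 (log2, SE 0.80, limma adjusted p = 0.036) in CCl4-fib against HSCs, and 42.9% of its exon bases overlap Dvl2 on the opposite strand. Acadm, the medium-chain enzyme, went the other way between the fibroblast groups, with 877, 865 and 1485 among the HSCs, 752, 583 and 696 among the CCl4-fib and 1452, 1670 and 2386 among the NASH-fib. All NASH-fib libraries were above all CCl4-fib libraries (log2 fold change 1.41, SE 0.34, limma adjusted p = 0.029), and it was the only 1 of the 13 called higher in NASH-fib. Acadl, the long-chain enzyme, lay between 291 and 1193 with no call.

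Of the genes of the later steps, Hadh alone was called. Hadh, the hydroxyacyl-CoA dehydrogenase of short chains, had 158, 240 and 544 in the HSC libraries, 1535, 1124 and 1163 in the CCl4-fib libraries and 88.4, 451 and 495 in the NASH-fib libraries. It rose in CCl4-fib against HSCs (log2 fold change 2.20, SE 0.66, limma adjusted p = 0.031), and the fall of 2.22 on the log2 scale from CCl4-fib to NASH-fib missed the threshold (SE 0.66, limma adjusted p = 0.056). Acaa2, a thiolase of the last step, had the highest value per kilobase of the mitochondrial genes averaged over the groups, with 2117, 635 and 4198 in HSCs, as against 2271, 2124 and 2482 in CCl4-fib, with 479, 2226 and 4103 in NASH-fib. Its group means per kilobase were close, at 1557, 1540 and 1525, while the HSC and NASH-fib libraries spread widely around them (SDs of 1203 and 1218 per kilobase, n = 3). Echs1, the enoyl-CoA hydratase, ran from 247 to 2037, with HSC replicate 2 and NASH-fib replicate 1 the lowest of their groups, and had a log2 fold change of 1.40 in CCl4-fib against HSCs (SE 0.78, limma adjusted p = 0.21). Eci1, an enoyl-CoA isomerase, lay between 56.3 and 170, and Etfdh, which passes the electrons on to ubiquinone, between 199 and 512. Acaa2, Echs1, Eci1 and Etfdh were not called in any comparison.

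Some enzymes of this group are built of paired subunits, and their genes could be set side by side in each library. Hadha and Hadhb encode the α and β subunits of the mitochondrial trifunctional protein and lie head to head on mm10 chromosome 5 with 272 bases between their starts. The 250 bases of that shared interval next to Hadhb (chr5:30155003-30155252, plus strand, RefSeq GRCm38.p6) are shown because they lie before both genes. Neither gene's promoter entry held the PPAR element in either form or the half-site.
Hadhb: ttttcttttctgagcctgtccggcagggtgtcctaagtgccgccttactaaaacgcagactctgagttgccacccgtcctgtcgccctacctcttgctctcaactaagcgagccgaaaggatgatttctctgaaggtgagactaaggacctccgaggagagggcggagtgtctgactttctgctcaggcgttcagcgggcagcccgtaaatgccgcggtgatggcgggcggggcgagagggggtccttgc
The ratio of Hadha to Hadhb per kilobase was between 0.443 and 0.717 in 8 libraries and 0.171 in HSC replicate 2, where Hadha had a value of 169 against 587 to 1173 elsewhere. Hadhb ran from 532 to 1036, and neither gene was called in any comparison.

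Etfa and Etfb encode the α and β subunits of the electron transfer flavoprotein, on chromosomes 9 and 7. Etfa had 284, 1190 and 336 among the HSCs, 321, 360 and 282 among the CCl4-fib and 794, 298 and 298 among the NASH-fib. Etfb had 343, 53.9 and 2054 in the HSC libraries, 1691, 1690 and 1884 in the CCl4-fib libraries and 42.1, 1668 and 1576 in the NASH-fib libraries. Thus HSC replicate 2 and NASH-fib replicate 1 were the highest of all libraries for one subunit and the lowest for the other. The ratio of Etfa to Etfb per kilobase was 13.6 and 11.6 in these libraries, 0.513 in HSC replicate 1, and between 0.0926 and 0.132 in the other 6. Neither gene was called, and 48.5% of the short stretches of Etfb are shared with another gene, 46.4% with Gm45233.

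**Figure D3:**
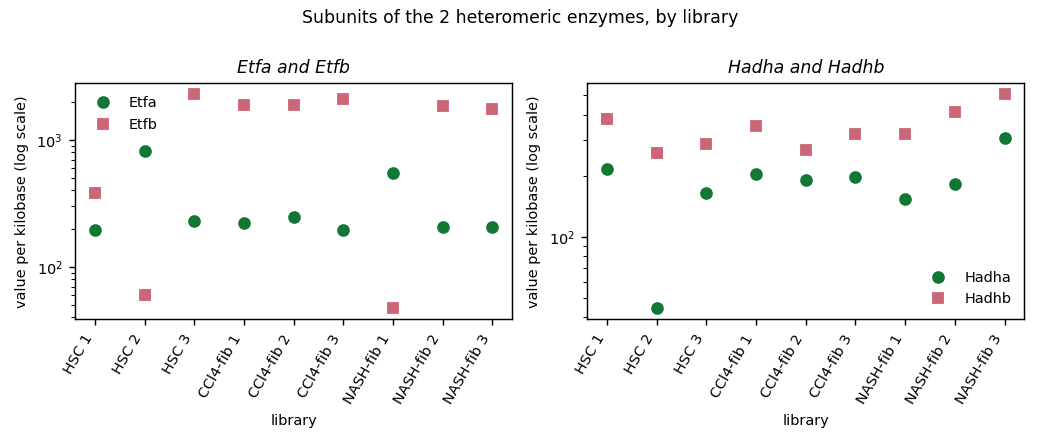
Value per kilobase of exon (log scale) in each library for Etfa and Etfb (left) and Hadha and Hadhb (right). In HSC replicate 2 and NASH-fib replicate 1, Etfa lies above Etfb (ratios of 13.6 and 11.6), the reverse of the other 7 libraries, and Hadha is low in HSC replicate 2 (ratio to Hadhb 0.171).

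The 4 peroxisomal genes had no call in any comparison. Ehhadh, the bifunctional enzyme of the peroxisome and a PPARα target, came nearest, with 113, 176 and 331 in HSCs, as against 49.2, 57.0 and 60.1 in CCl4-fib, with 443, 79.3 and 363 in NASH-fib. CCl4-fib were below both other groups without overlap, at log2 fold changes of -1.75 (SE 0.64, limma adjusted p = 0.065) against HSCs and 2.06 (SE 0.64, limma adjusted p = 0.065) in NASH-fib against CCl4-fib. Eci2, an isomerase and the gene of this role with the highest value per kilobase, had 915, 718 and 909 among the HSCs, 1241, 1072 and 1279 among the CCl4-fib and 920, 695 and 736 among the NASH-fib. Acaa1a, a peroxisomal thiolase, lay between 46.8 and 195, and Hsd17b4, the second bifunctional enzyme, between 272 and 610.

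Omega-oxidation was the role with the lowest values in CCl4-fib. Cyp4a10, Cyp4a12a and Cyp4a14 encode cytochrome P450 enzymes that hydroxylate the far end of fatty acids. All 3 were called lower in CCl4-fib than in HSCs, against 11.7% of all genes tested. Cyp4a12a (NM_177406, mm10 chromosome 4, 115299046 to 115332815, plus strand) had 138, 67.0 and 1048 in the HSC libraries, 0, 0 and 0 in the CCl4-fib libraries and 174, 29.4 and 517 in the NASH-fib libraries. With the floor of 3 reads per library, it was at least 161-fold lower in CCl4-fib than in HSCs and at least 92.4-fold higher in NASH-fib than in CCl4-fib (limma adjusted p = 6.6e-04 and 0.0086). Both bounds rest largely on replicate 3, and they became 39.4-fold without HSC replicate 3 and 39.1-fold without NASH-fib replicate 3. Cyp4a10 (NM_010011, same chromosome, 115518287 to 115533649, plus strand) had 223, 35.0 and 1141 in HSCs, as against 0, 0 and 0 in CCl4-fib, with 158, 5.34 and 192 in NASH-fib. It was at least 179-fold lower in CCl4-fib than in HSCs and at least 45.5-fold higher in NASH-fib than in CCl4-fib (limma adjusted p = 0.0024 and 0.028). The first bound became 49.7-fold without HSC replicate 3, and the second became 31.4-fold without NASH-fib replicate 3. Cyp4a14 had 88.8, 58.3 and 308 among the HSCs, 0.794, 0 and 0 among the CCl4-fib (1 read in all) and 84.3, 0 and 14.7 among the NASH-fib. It was called lower in CCl4-fib than in HSCs (limma adjusted p = 0.0046) and not called between the fibroblast groups (limma adjusted p = 0.15).

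The Cyp4a values varied more widely among the HSC libraries than the hepatocyte sum did. Per 1000 units of the hepatocyte sum, Cyp4a12a was 0 in CCl4-fib, 1.34 to 12 in HSCs and 2.39 to 10.1 in NASH-fib. Per 1000 units of Alb it was 4.73 to 90.0 in HSCs and 11.7 to 65.5 in NASH-fib. Alb itself was 617 to 829 in CCl4-fib. Close copies share reads here: 58.4% of the short stretches of Cyp4a12a are also in Cyp4a12b and 40.1% of those of Cyp4a10 occur in another gene, most often Cyp4a32.

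Thioesterases release fatty acids from coenzyme A, Bdh1 acts in ketone body metabolism and Pdk4 turns fuel use from glucose to fat. None of the 4 genes of this role was called. Acot2, the mitochondrial thioesterase, had the highest value per kilobase, with 762, 147 and 424 in the HSC libraries, 792, 863 and 805 in the CCl4-fib libraries and 560, 440 and 543 in the NASH-fib libraries. Acot1, its cytosolic neighbor and near copy, lay between 3.51 and 91.6. Pdk4, a classical target of PPARs in many tissues, had 120, 205 and 110 in HSCs, as against 82.6, 197 and 78.2 in CCl4-fib, with 121, 71.3 and 53.1 in NASH-fib, so the groups overlapped. Bdh1 had 5.84, 14.6 and 124 among the HSCs, 21.4, 22.1 and 8.59 among the CCl4-fib and 44.9, 79.3 and 207 among the NASH-fib. Every NASH-fib library was above every CCl4-fib library, but the log2 fold change of 2.42 was not called (SE 0.99, limma adjusted p = 0.14).

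All 5 genes of the last role were called in CCl4-fib against HSCs, 2 higher and 3 lower (16.2% and 11.7% of all genes tested). Lpl, lipoprotein lipase, rose with values of 1257, 1728 and 1019 in the HSC libraries, 2592, 3994 and 4156 in the CCl4-fib libraries and 2440, 1948 and 1852 in the NASH-fib libraries. All fibroblast libraries were above all HSC libraries, with a call in CCl4-fib (log2 fold change 1.43, SE 0.34, limma adjusted p = 0.010) and none in NASH-fib (0.66, SE 0.34, limma adjusted p = 0.29). Angptl4, a secreted inhibitor of lipoprotein lipase and a PPAR target, had 59.6, 16.02 and 130 in HSCs, as against 451, 931 and 1096 in CCl4-fib, with 77.5, 217 and 104 in NASH-fib. It rose by 3.91 (log2, SE 0.71, limma adjusted p = 0.0024) in CCl4-fib, and in NASH-fib it was lower than in CCl4-fib (-2.67, SE 0.71, limma adjusted p = 0.040). Angptl4 and Lpl were thus high in the group in which Ppara was lowest.

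Lipc, hepatic lipase, had 67.8, 21.8 and 185 among the HSCs, 3.97, 0 and 0 among the CCl4-fib and 21.8, 14.3 and 38.3 among the NASH-fib. It was lower in CCl4-fib than in HSCs (log2 fold change -5.28, SE 0.90, limma adjusted p = 0.0018) and higher in NASH-fib than in CCl4-fib (3.81, SE 0.90, limma adjusted p = 0.027). Ces3a (NM_198672, mm10 chromosome 8, 105048599 to 105058414, plus strand), a triglyceride hydrolase of the liver, had 682, 285 and 1488 in the HSC libraries, 0, 4.25 and 6.68 in the CCl4-fib libraries and 182, 46.3 and 224 in the NASH-fib libraries. The 3 groups did not overlap, and the log2 fold change was -7.59 (SE 0.90, limma adjusted p = 2.0e-04) in CCl4-fib against HSCs, 5.19 (SE 0.90, limma adjusted p = 0.011) in NASH-fib against CCl4-fib and -2.41 (SE 0.90, limma adjusted p = 0.13) in NASH-fib against HSCs. Relative to 1000 units of the hepatocyte sum, Ces3a was even within NASH-fib at 3.86, 3.76 and 4.38, against 5.70 to 17.04 in HSCs and 0 to 0.671 in CCl4-fib. The near copy Ces3b holds most of the 32.3% of its short stretches that are not unique.

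Ces1d, another carboxylesterase that mobilizes stored triglyceride, had 362, 99.0 and 941 in HSCs, as against 71.4, 30.6 and 13.4 in CCl4-fib, with 382, 631 and 829 in NASH-fib. It was lower in CCl4-fib than in HSCs (log2 fold change -3.34, SE 0.80, limma adjusted p = 0.011) and higher in NASH-fib than in CCl4-fib (4.19, SE 0.80, limma adjusted p = 0.014). Ces1d did not follow the summed hepatocyte markers within NASH-fib. Single markers varied too. Like Ces1d, Hp, Ahsg, Ambp, Apoa1 and Tat were higher in replicate 2 than in replicate 1, and the rest of the 20 were lower. The part of hepatocyte RNA in the Ces1d values was not tested. In replicate 2, which had the lowest hepatocyte sum of the group, Ces1d was 631, and its ratio per 1000 units of that sum was 51.3 there against 8.09 and 16.2 in replicates 1 and 3.

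**Figure D4:**
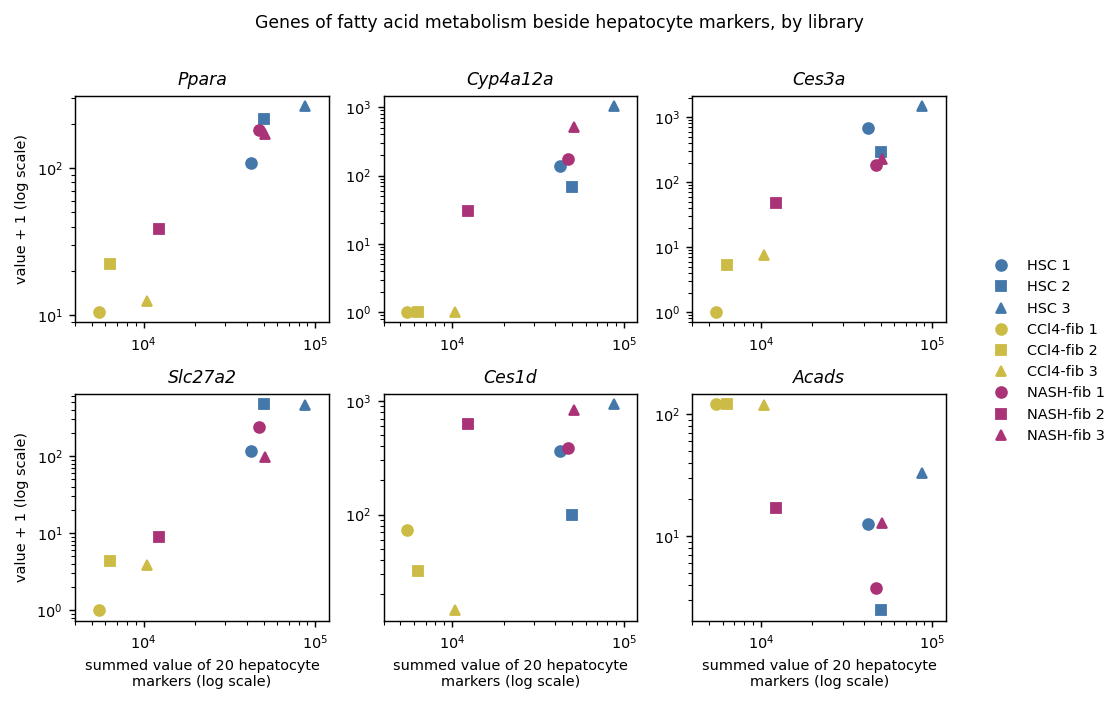
Value plus 1 of 6 of the genes (vertical, log scale) against the summed value of 20 hepatocyte markers (horizontal, log scale), 1 point a library. Colors give the group and shapes the replicate. NASH-fib replicate 2 (magenta square, sum 12321) lies between the CCl4-fib and the other libraries for Ppara, Cyp4a12a, Ces3a and Slc27a2, but level with the other NASH-fib libraries for Ces1d. Acads is highest in CCl4-fib, where the sum is lowest.

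Across the genes called, NASH-fib replicate 2 was the lowest of its group for 8 of the 10 genes higher in NASH-fib than in CCl4-fib, where it was lowest for 23.3% of all genes tested, the exceptions being Acadm and Ces1d. It was lowest for 12 of the 14 genes that were lower in CCl4-fib than in HSCs. The spread within groups differed too. For each gene the highest library was divided by the lowest, and the median of this ratio was 4.06 in HSCs (45 genes without a 0), 1.55 in CCl4-fib (39 genes) and 2.69 in NASH-fib (45 genes).

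The comparison of the fibroblast groups rested on few libraries. When 1 of CCl4-fib replicates 1, 2 and 3 was left out, the 10 higher genes became 4, 2 and 4, and the share of all genes called higher became 2.41%, 1% and 2.12%. Leaving out NASH-fib replicate 1 gave 4 genes (2.31% of all) and leaving out NASH-fib replicate 3 gave 1 gene (0.807% of all). Without NASH-fib replicate 2 it was 13 genes, the 10 and Cyp4a14, Ehhadh and Slc27a5. The call of Cyp4a12a held without any 1 library. Ces3a lost its call only without NASH-fib replicate 3 (log2 fold change 4.76, limma adjusted p = 0.05001) and Ces1d without CCl4-fib replicate 2 or NASH-fib replicate 3 (3.94 to 4.18, limma adjusted p = 0.056 to 0.060). Ppara, Slc27a2, Cyp4a10 and Acads each lost it without any of the 3 CCl4-fib libraries or without NASH-fib replicate 1 or 3, at log2 fold changes of 2.5 to 3.21, 3.53 to 4.92, 4.99 to 5.86 and -3.93 to -3.03. Angptl4 lost it without these 5 or HSC replicate 1 (-3.06 to -2.35), and Cd36 without these 5 or HSC replicate 1 or 3 (1.71 to 2.75). Fabp1 lost it without CCl4-fib replicate 1 or 2 or NASH-fib replicate 1 or 3 (1.45 to 1.79), Lipc without CCl4-fib replicate 2 or 3 or NASH-fib replicate 1 or 3 (3.42 to 3.84) and Acadm without any CCl4-fib library or NASH-fib replicate 3 (1.21 to 1.49). No direction changed.

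Calls in CCl4-fib against HSCs changed less in number. Of the 14 lower genes, 11 to 14 kept the call when 1 library was left out, and Ehhadh gained it without NASH-fib replicate 1 or 2. Those that lost the call were Cd36, without HSC replicate 2 or any CCl4-fib library (log2 fold change -2.70 to -2.27), Fabp4, without HSC replicate 1 or 2 or any CCl4-fib library (-1.71 to -1.26), and Acsl5, without HSC replicate 1 or 2 or CCl4-fib replicate 2 or 3 (-1.68 to -1.39). Of the 7 higher genes, Acadvl and Hadh lost it without HSC replicate 1 or 2 or any CCl4-fib library (1.92 to 2.92 and 1.80 to 2.28), and Acads and Lpl without CCl4-fib replicate 2 (3.57 and 1.33). In NASH-fib against HSCs, Slc27a5 lost its call without HSC replicate 1, 2 or 3, CCl4-fib replicate 2 or 3, or NASH-fib replicate 1 or 2 (-3.71 to -2.51), and Slc27a1 without HSC replicate 1 or NASH-fib replicate 2 (2.27 to 2.34). With 3 libraries against 3, an exact permutation test of a single gene cannot give a two-sided p under 0.10, so the p-values rest on the spread pooled over genes by limma. That spread is the one between libraries, each from its own pool of mice. Differences between pools and those from library preparation cannot be told apart in it.

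Other genes of the same pathways were fitted alongside. Of 79 tested from a list of 86 further genes of fatty acid metabolism, 8 were higher and 17 lower in CCl4-fib than in HSCs (10.1% and 21.5%, against 16.2% and 11.7% of all genes tested). In NASH-fib against HSCs, 2 were higher and 2 lower (2.53% each, against 8.23% and 4.3%), and in NASH-fib against CCl4-fib 11 were higher and 2 lower (13.9% and 2.53%, against 4.97% and 5.66%). The median log2 fold changes were -0.19, -0.18 and 0.04. Vnn1, a pantetheinase and PPARα target, had 98.2, 21.8 and 281 among the HSCs, 706, 605 and 428 among the CCl4-fib and 1726, 2360 and 2427 among the NASH-fib, and rose by 4.64 (log2, SE 0.72, limma adjusted p = 0.0017) in NASH-fib against HSCs. Bdh2, a cytosolic hydroxybutyrate dehydrogenase, rose by 3.36 (SE 0.68, limma adjusted p = 0.0074) in NASH-fib and by 4.55 (SE 0.68, limma adjusted p = 8.0e-04) in CCl4-fib. In CCl4-fib, Fabp3, the heart fatty acid-binding protein, rose by 4.43 (log2, SE 0.85, limma adjusted p = 0.0033), from 1.17, 1.46 and 5.98 to 80.2, 39.1 and 115.

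The largest falls in that list were those of carboxylesterases and of a Cyp4a gene. Ces3b had 182, 108 and 379 in the HSC libraries, 0, 0 and 0.95 in the CCl4-fib libraries and 23.1, 2.67 and 52.1 in the NASH-fib libraries, and was called lower in both fibroblast groups (limma adjusted p = 3.1e-04 and 0.029). Ces2a was lower in NASH-fib than in HSCs as well (log2 fold change -3.24, SE 0.81, limma adjusted p = 0.023). Cyp4a12b had 65.5, 46.6 and 674 in HSCs, as against 0, 0 and 0 in CCl4-fib, with 76.1, 14.3 and 159 in NASH-fib, with calls in CCl4-fib against HSCs and in NASH-fib against CCl4-fib (limma adjusted p = 9.3e-04 and 0.013). Acox2, a peroxisomal oxidase of branched chains and bile acid precursors, was higher in NASH-fib than in CCl4-fib by 4.77 (log2, SE 1.14, limma adjusted p = 0.029). Lower in NASH-fib than in CCl4-fib were Ucp2, a mitochondrial carrier (-3.32, SE 0.66, limma adjusted p = 0.016), and Acot7, a cytosolic thioesterase (-2.94, SE 0.78, limma adjusted p = 0.039).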

How the data were processed

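The RNA was amplified from few cells, sequenced as single ends and, per the labels and the study's methods, processed with CASAVA and aligned with STAR to mm10. The authors counted reads on exons on both strands with HOMER, at most 3 per position. They deposited normalized values, described as scaled by size factors over 10 libraries with DESeq2. The deposited values of each library sum to 4471988 to 4471995, so each library is on the same total. The deposited values are thus a signal, not raw counts, and the tenth library was not analysed here. All values were whole multiples of 1 read per library (100% within 0.02 of a whole read), so reads per gene were recovered for depth, filters and the count tests run as alternatives. Versions of the authors' tools are not given in the sources used here. The file also carries gene annotation, which was used for names and positions.

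Genes were kept by edgeR's filterByExpr with a minimum count of 10, and log2(value + 1) was fitted with limma 3.58.1 (with trend) in R 4.3.3, 1 model over the 9 libraries, with Benjamini-Hochberg adjustment. Fold changes on this scale understate those of genes with low values. The pathway, marker and member lists were chosen with earlier results of these data known. All members are accounted for, with full values for Ppara, Ppard, Ppargc1a, Cpt1a and, in each role, the called gene of the largest change in each comparison and the gene of the highest value per kilobase, with further members added in the text. Among other pathway genes, the 2 of the largest change in each direction were named. Alternatives were edgeR 4.0.16 and DESeq2 1.42.0 on recovered reads, upper-quartile scaling, no filter or an average value over 100, pseudocounts of 0.5 and 8, only the groups compared, no fold limit, a replicate block, the label date as a term, and each library left out. Leaving out HSC replicate 2 and NASH-fib replicate 1 together was chosen after seeing the data. The steps were tested on simulated counts with the same spread for all genes. Those counts held no GC shift between libraries and no mixed cell content, so that test does not cover either. Shared sequence means 36-base stretches of exons found in another gene. Protein sequences were not used here.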

Additional observations from a re-analysis of the deposited data

Results flagged for a closer look

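Cd36, Acadm, Acads and Ces1d had effects of opposite sign in the fibroblast groups against HSCs, and the difference between those effects passed the limma test after Benjamini-Hochberg adjustment. NASH-fib minus CCl4-fib was 2.64 for Cd36 (limma adjusted p = 0.046), 1.41 for Acadm (limma adjusted p = 0.029), -3.70 for Acads (limma adjusted p = 0.031) and 4.19 for Ces1d (limma adjusted p = 0.014), all log2. The HSC libraries cancel in this difference, which is that of NASH-fib against CCl4-fib. The NASH-fib effect against HSCs was not called for Cd36 (0.05, SE 0.74), Acads (-0.12, SE 0.91) or Ces1d (0.85, SE 0.80). For Acadm neither effect was called (0.79 in NASH-fib and -0.63 in CCl4-fib, SE 0.34 each). All 3 NASH-fib libraries were above all CCl4-fib libraries for Cd36, Acadm and Ces1d and below them for Acads. Groups of 3 libraries were not tested for a single library far from the others.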

How the results depend on the processing

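Replicate numbers did not pair the libraries (correlations of deviations between same-numbered libraries ran from -0.47 to 0.51). With the replicate block, the members higher in NASH-fib than in CCl4-fib numbered 7 in place of 10, the 2 lower numbered 0, and the 2 lower pathway genes numbered 1.

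The 14 members lower in CCl4-fib than in HSCs moved least. Counts of members that moved by over 1.5 times, NASH-fib against HSCs: 2 higher became 0 with average values over 100, 1 with only the groups compared and 0 with the label date, and 1 lower became 0 under edgeR (5 settings more gave 0: no filter, average over 100, pseudocount 0.5, only the groups compared, label date), 3 under DESeq2, and 2 with a pseudocount of 8 or without HSC replicate 2 and NASH-fib replicate 1. CCl4-fib against HSCs: 7 higher became 4 with average values over 100 and 4 with the label date. NASH-fib against CCl4-fib: 10 higher became 4 and the 9 genes with both calls 3 with the label date, and 2 lower became 4 under DESeq2, 4 with a pseudocount of 8, and 1 with average values over 100 or the label date. The cause was not tested.

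With 1 library left out, members numbered 1 to 3 higher and 0 to 2 lower (NASH-fib against HSCs), 3 to 9 and 11 to 15 (CCl4-fib against HSCs), 1 to 13 and 0 to 3 (NASH-fib against CCl4-fib), and 1 to 12 had both calls. Other pathway genes numbered 2 to 4 and 0 to 4, 4 to 10 and 10 to 18, and 0 to 13 and 0 to 4. Their 2 higher in NASH-fib against HSCs became 4 under DESeq2 or without the pair of libraries that stood apart, and 1 with average values over 100 or the label date, and their 2 lower became 0 with average values over 100, 1 with only the groups compared, 0 with the label date and 5 without that pair. In CCl4-fib against HSCs, 8 higher became 5 and 17 lower became 8 with average values over 100 (19 lower without that pair). In NASH-fib against CCl4-fib, 11 higher became 17 under DESeq2, 4 with average values over 100 and 3 with the label date. With average values over 100, only 42 of these 79 genes were tested, and those left out could not be called.

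Ppard in CCl4-fib against HSCs turned from 0.12 to -0.15 under edgeR, -0.13 under DESeq2, -0.73 with the label date, -0.38 without HSC replicate 1 and -0.10 without CCl4-fib replicate 1 (-0.38 to 0.59 with 1 library left out). Only the label date 11-3 holds all groups, with 1 library each, so date and group are largely confounded. Depth limits genes near 3 reads, above all Ppargc1a in HSCs and the Cyp4a genes in CCl4-fib.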
